A study of Mus musculus with 6 samples.

Results

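Enzymes of phase II metabolism attach a polar group to drugs, hormones, bilirubin and bile acids, so that these can leave the hepatocyte for bile or urine. Glutathione S-transferases (Gst and the membrane-bound Mgst genes) add glutathione to reactive electrophiles. UDP-glucuronosyltransferases (Ugt1a and Ugt2) add glucuronic acid, the related Ugt3 enzymes use other UDP-sugars, and sulfotransferases (Sult) add sulfate from the donor PAPS. Many of these genes are low in fetal liver and rise around birth. The genes were taken by platform symbol, as those beginning with Gsta, Gstm, Gstp, Gstt, Gsto, Gstk, Mgst, Ugt1a, Ugt2, Ugt3 or Sult. This gave 60 genes with 98 probes, out of 19057 named genes and 45281 probes on the Illumina BeadChip.

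Liver RNA came from newborn mice of a mixed 129 and C57Bl/6 background, 3 arrays from wild-type (WT) animals and 3 from Igf2 knockouts. Igf2 encodes a growth hormone of the fetus, and the comparison asks how its loss goes with liver expression at birth. The labels do not give the allele, the sex of the pups, or whether an array holds 1 animal. For Igf2 itself the WT signal was 19218 ± 575 and the knockout signal 10293 ± 1372 (SD, n = 3 each; limma adjusted p = 0.0022). What part of the transcript its probe reads was not analysed here.

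Several features of the arrays bear on the values below. All 9 hepatocyte markers with a probe were detected on every array, and their mean log2 intensity was 12.27 to 12.37. Of 12 lung markers, 4 were detected on each WT array, 12 on knockout arrays 1 and 2, and 6 on knockout array 3. The mean log2 intensity of the lung list was 5.76 to 5.85 in WT and 8.93, 10.2 and 6.02 on knockout arrays 1, 2 and 3. Sftpa1, Sftpb, Cldn18, Lamp3, Nkx2-1 and Slc34a2 were detected on knockout arrays 1 and 2 and not above background on the other 4. Of 5 cholangiocyte markers, 2 to 3 were detected on the WT arrays and 3 to 4 on the knockout arrays. The log2 intensity of Xist was 10.01 on WT array 1, 10.97 and 10.84 on knockout arrays 1 and 2, and 4.61 to 5.09 on the other 3 arrays. The Y-linked genes Eif2s3y, Kdm5d and Uty were detected on all 6 arrays, with Eif2s3y at 9.82, 9.45 and 9.31 on the 3 Xist-high arrays and 9.88 to 10.1 on the others. So 3 arrays held both Xist and Y-linked transcripts at these levels, and whether they hold RNA of more than 1 animal was not tested. The lung level, and a sex level from Xist and the Y-linked genes, were fitted as covariates only in alternatives given below. The lung level was higher on every knockout array than on any WT array. Its part in the differences therefore cannot be told apart from that of genotype. Xist was uneven between the genotypes as well. Values on knockout array 3 alone are given with the conjugation genes that passed. In whole liver RNA, fewer cells of a type and less RNA per cell cannot be told apart.

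Of the 60 genes, 13 were not above background on any array by any probe. They were Gstm3, Gstt4, Ugt2a1, Ugt2a2, Ugt2b5, Ugt2b37, Ugt2b38, Sult1b1, Sult1c1, Sult1e1, Sult3a1, Sult3a2 and Sult6b1. Sult4a1, a sulfotransferase of brain, was detected on 1 knockout array and was not tested. The other 46 passed the filter, which asked that some probe be detected (p under 0.05) on 3 or more of the 6 arrays, and 40 genes were detected on all 6 arrays. Signals are the deposited background-subtracted intensities, and log2 values are those after limma's neqc, which adds an offset of 16 and so makes fold changes of dim genes smaller than the true ones.

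Conjugation genes moved in both directions. At an adjusted p under 0.05 (limma, Benjamini-Hochberg over all genes tested), 8 of the 60 were higher and 8 lower in the knockout, 30 were tested and did not pass, and 14 were not tested. Among all 11346 genes tested, 16.7% passed, 8.23% as higher and 8.49% as lower, against 17.4% in each direction of the 46 tested here. The median log2 fold change of these 46 was 0.07 (0.022 over all genes tested). WT and knockout values did not overlap for 12 genes that were higher and 8 that were lower, which is 43.5% of the 46 against a background of 39.1% (20.8% higher and 18.3% lower). At least 2-fold changes that passed were found for 7 genes, or 15.2% against 2.81% of all genes tested. The fold of all 16 genes had the same sign within the Xist-high arrays (knockout 1 and 2 over WT 1) and within the Xist-low arrays (knockout 3 over WT 2 and 3). As none of the 16 had overlapping groups, this sign was fixed in advance and adds no support. Without knockout array 1 the counts were 3 higher and 6 lower. Without both knockout arrays 1 and 2 they were 3 and 3, Gsta1, Gsta2 and Gsto2 higher and Ugt2b34, Ugt2b35 and Sult2a8 lower, with the lone knockout array assumed to vary like the WT arrays.

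**Figure D1:**
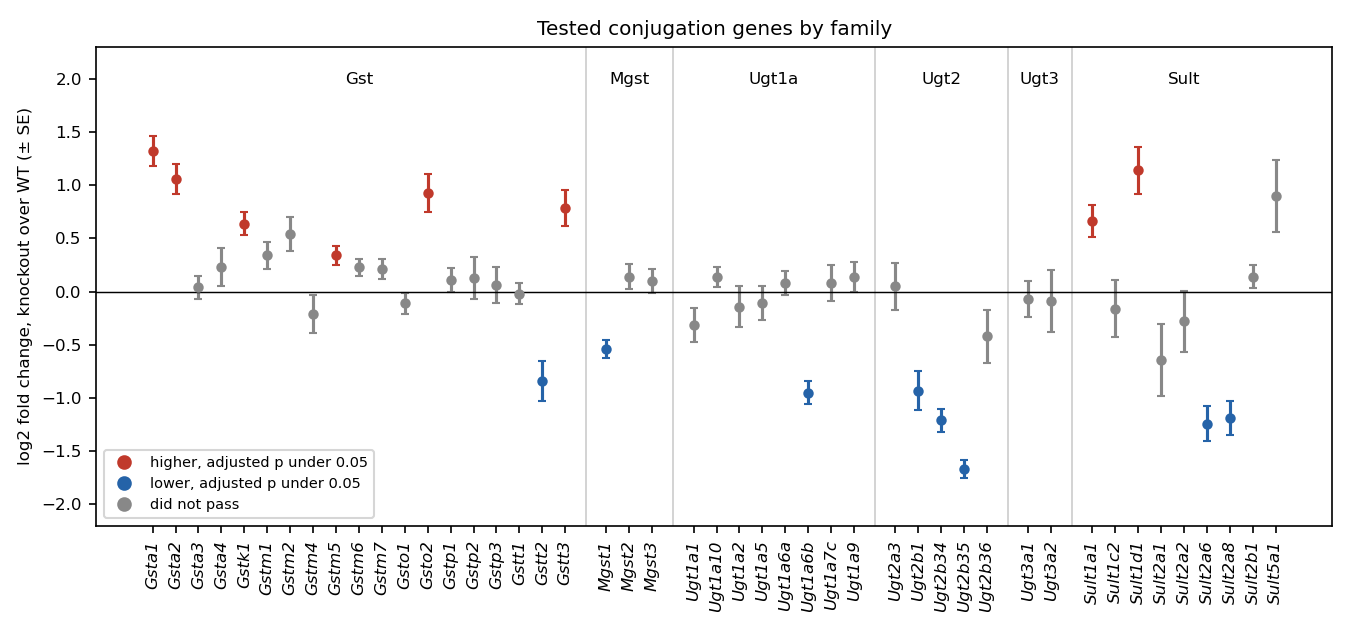
Log2 fold change of knockout over WT (vertical axis, limma, bars are SE) for the 46 tested genes, grouped by family along the horizontal axis; colours mark genes with an adjusted p under 0.05. Rises lie among the Gst and Sult genes (8 in all), and the deepest fall is that of Ugt2b35 at -1.67.

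By family, 19 of 21 Gst genes were tested. Of these, 6 rose and 1 fell. Of 3 Mgst genes, 1 fell, and of 8 Ugt1a genes, 1 fell. Among 10 Ugt2 genes, 5 were tested, of which 3 fell and the others did not pass. Neither of the 2 Ugt3 genes passed, with an unadjusted p of 0.679 for Ugt3a1 and 0.763 for Ugt3a2. Of 16 Sult genes, 9 were tested, 2 rose and 2 fell. The shares of tested genes that passed as higher were 31.6% for Gst and 22.2% for Sult, against 8.23% of all genes tested. As lower they were 5.26% for Gst, 33.3% for Mgst, 12.5% for Ugt1a, 60% for Ugt2 and 22.2% for Sult, against 8.49%. No test compared 1 family with another.

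**Figure D2:**
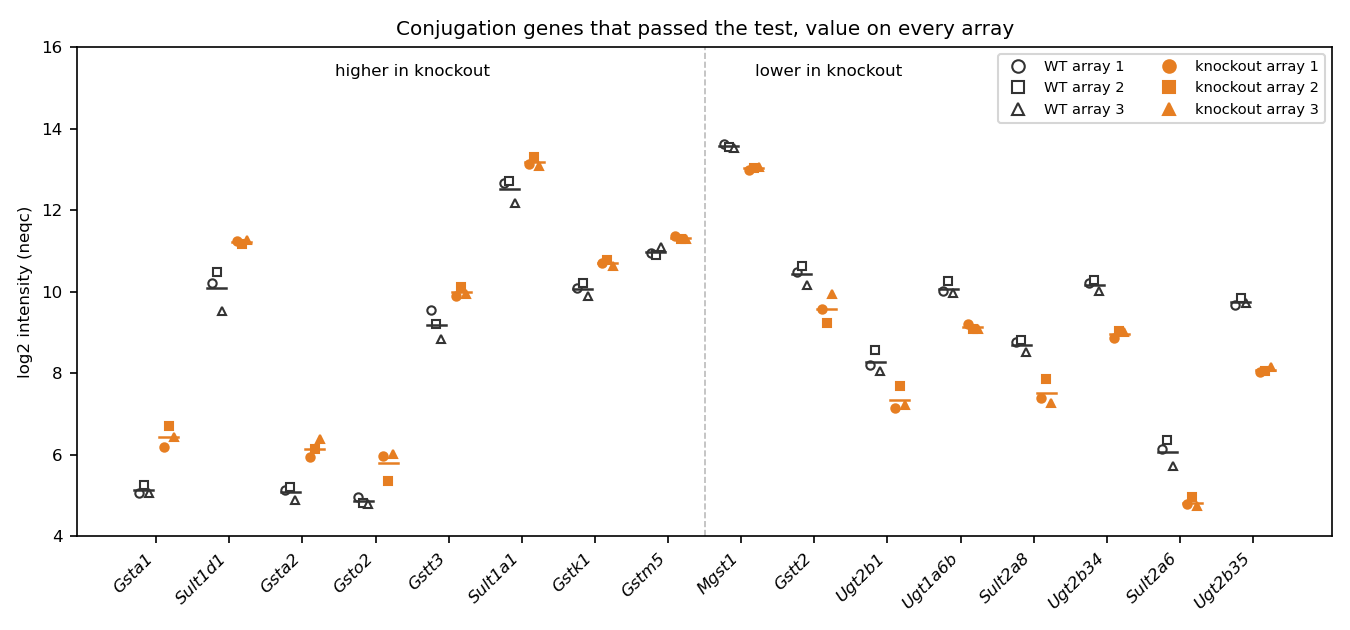
Log2 intensity after neqc (vertical axis) of the 16 genes that passed, on each WT array (open symbols) and knockout array (filled symbols), with lines at group means of 3 arrays. In none of the 16 do WT and knockout arrays overlap, and the widest spread within a group is that of Sult1d1 in WT (SD 0.49).

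The alpha-class genes Gsta1 and Gsta2 had the largest rises among the transferases of glutathione. Gsta1 and Gsta2 encode near-identical cytosolic enzymes that are well known for induction by xenobiotics and antioxidants. The signal of Gsta1 was 16.7, 22 and 17.1 on WT arrays 1 to 3 and 57.1, 87.6 and 71 on the knockout arrays. Every knockout array was above every WT array. The highest value was on knockout array 2, the array with the highest lung level, and knockout array 3, the knockout with the lowest, was the middle one. The log2 fold change was 1.32 ± 0.14 (SE; limma adjusted p = 0.00126), a 2.50-fold rise. Gsta2 read 19, 21 and 12.6 in WT and 45.2, 54.2 and 66.8 in the knockout, detected on 2 of 3 WT arrays. It rose by 1.06 ± 0.14 (adjusted p = 0.00275), and its highest array was knockout 3. Gsta2 met the filter only with the knockout arrays, where it is high, so its p-value does not stand apart from that filter. A probe of either gene may bind both transcripts, so the 2 rises may not be separate measurements. Both calls held with only knockout array 3 in the group (adjusted p = 0.0248 and 0.0324).

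The other alpha genes did not pass. Gsta3, the alpha enzyme known in mouse for detoxifying aflatoxin, gave 8909 ± 959 in WT and 9149 ± 704 in knockouts (SD, n = 3 each). Its log2 fold change was 0.04 ± 0.11. Gsta4, which conjugates the lipid peroxidation product hydroxynonenal, had 206 ± 51.8 and 242 ± 42.9. Groups overlapped for both genes. In the RefSeq gene table Gsta4 is the neighbour of Gsta1, whereas Gsta3 lies on another chromosome.

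The start regions of Gsta1 and Gsta2 are shown because these paralogs moved together. The lines give the last 120 bases before the RefSeq start (GRCm38.p6), 5′ to 3′ on the strand of the gene, with capitals at bases identical in an alignment of the pair.
Gsta1, chr9:78230549-78230668, plus strand: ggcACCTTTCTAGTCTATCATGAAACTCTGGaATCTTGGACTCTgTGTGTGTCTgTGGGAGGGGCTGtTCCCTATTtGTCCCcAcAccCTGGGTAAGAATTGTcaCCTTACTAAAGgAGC
Gsta2, chr9:78347146-78347265, minus strand: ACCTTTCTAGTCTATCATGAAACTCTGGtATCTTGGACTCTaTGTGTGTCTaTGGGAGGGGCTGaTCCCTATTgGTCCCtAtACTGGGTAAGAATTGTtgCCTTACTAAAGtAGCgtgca
Of the 120 bases, 105 are identical. Over 250 bases before the start, 73.6% were identical, against 58.8% for Gsta2 with Gsta3 and 56.4% for Gsta1 with Gsta3. The antioxidant response element of the factor NRF2, searched as TGACNNNGC on both strands, is not in the 250 bases of either gene. It was found in 4 of 64 windows of the families, those of Gsta3, Gstm5, Gstm7 and Mgst1 (6.25%, against 10.2% of 32851 windows of all genes).

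The mu-class genes lie side by side on chromosome 3 and encode cytosolic transferases for epoxides and other electrophiles. Of 7 such genes, 1 passed, Gstm5, whose human counterpart GSTM3 is best known from testis and brain. Gstm5 read 1943.4, 1897.6 and 2163.9 in WT and 2602, 2507.6 and 2497.5 in the knockout, without overlap. It rose by 0.34 ± 0.089 (SE; limma adjusted p = 0.0385), but omitting WT array 1 or 2, or any single knockout array, ended the call (adjusted p 0.0818 to 0.131), and with knockout array 3 alone the value was 0.32 (0.34). Gstm2 had 671 ± 91.6 and 987 ± 189 by its brightest probe and just missed the threshold (0.54 ± 0.16; adjusted p = 0.0569). It passed without knockout array 3 (0.0387), and knockout array 2, the array with the highest lung level, was its highest. Gstm2 also passed with an offset of 50, probe means, another variance model, array weights, and rows with equal probe IDs. Its other probes, each tested on its own, passed without overlap (0.61 ± 0.13 and 0.46 ± 0.13; limma adjusted p = 0.0179 and 0.0468). Gstm1 (0.34 ± 0.13), Gstm6 (0.23 ± 0.081) and Gstm7 (0.21 ± 0.094) did not pass. By the brightest probe the groups of these 3 did not overlap, with the knockout higher, which held for 20.8% of all genes tested. A second, dim Gstm1 probe overlapped with the opposite sign (-0.26 ± 0.15), and with probe means Gstm1 had 0.04. Gstm4 had -0.21 ± 0.18 with overlap (-0.42 and an adjusted p of 0.045 without WT array 2).

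Gstk1 encodes the kappa-class enzyme of mitochondria and peroxisomes. Its signal was 1076.3, 1165.1 and 928.6 in WT and 1664.7, 1731.7 and 1568 in the knockout. All 3 knockout arrays were higher, and the rise was 0.64 ± 0.11 (SE; limma adjusted p = 0.00746). A second probe gave 0.65 ± 0.11. With only knockout array 3 the log2 fold change was 0.57 (adjusted p = 0.181).

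In the omega and theta classes 2 genes rose and 1 fell. Gsto2, which reduces dehydroascorbate, the oxidised form of vitamin C, read 14.7, 10.3 and 9.7 in WT and 46.9, 25.3 and 49.1 in the knockout. It was above background on 1 WT array and on all 3 knockout arrays, and rose by 0.93 ± 0.18 (SE; limma adjusted p = 0.0127). Gsto2 met the filter only with the arrays of the group where it is high, so its p-value does not stand apart from that filter. The call of Gsto2 is given with this limit. Omitting knockout array 1 ended the call (adjusted p = 0.0571). Gsto1, the adjacent gene, had 3608 ± 337 in WT and 3328 ± 113 in the knockout and did not pass. Gstt3 and Gstt2, theta enzymes that act on small halogenated compounds, moved in opposite directions. Gstt3 read 727, 572.3 and 439.2 in WT and 934.2, 1084.1 and 967 in the knockout, a rise of 0.79 ± 0.17 (adjusted p = 0.0216). Gstt2 read 1407.3, 1559.5 and 1135.1 in WT and 744.7, 582.5 and 968.8 in the knockout, a fall of -0.84 ± 0.19 (adjusted p = 0.0263). By these probes the groups overlapped for neither gene. A second Gstt2 probe read 207.4, 317.4 and 248.5 in WT and 191.5, 129.2 and 235.4 in the knockout, with overlap, and did not pass (-0.46 ± 0.22; adjusted p = 0.184 over all kept probes). With probe means Gstt2 had -0.65 (adjusted p = 0.0607). Gstt1, which lies next to Gstt3, had 805 ± 33.4 and 795 ± 81.1 and did not pass. The fold of Gstt2 was -0.48 with knockout array 3 alone, and its lowest value was on knockout array 2, where lung transcripts were highest. Omitting array 1 or 2 of either genotype ended the call of Gstt2 (adjusted p 0.0579 to 0.0865). Omitting WT array 2, knockout array 1 or knockout array 2 ended that of Gstt3 (0.0553 to 0.0651), whose value with knockout array 3 alone was 0.75 (0.236).

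None of the 3 pi-class genes passed. Gstp1, a pi enzyme known from mouse liver, had 2282 ± 261 in WT and 2454 ± 178 in knockouts (SD, n = 3 each), Gstp2 had 31 ± 12.6 and 34.6 ± 5.57, and Gstp3 had 4559 ± 736 and 4780 ± 918. Their groups overlapped, and the log2 fold changes were 0.11 ± 0.11, 0.13 ± 0.20 and 0.06 ± 0.17 (SE; limma adjusted p 0.538 to 0.823).

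Mgst1, a transferase and peroxidase anchored in the endoplasmic reticulum and outer mitochondrial membranes, was lower in the knockout. Its brightest probe read 12688.1, 11935.7 and 11673.7 in WT and 8047.1, 8372 and 8537.8 in the knockout. The gap between the groups was wider than the range within either. The fall was -0.54 ± 0.083 (SE; limma adjusted p = 0.00563), a 1.45-fold difference, and a second probe gave -0.60 ± 0.098. With knockout array 3 alone it was -0.50 (adjusted p = 0.157). The related Mgst2 (0.14 ± 0.12) and Mgst3 (0.10 ± 0.11), enzymes of leukotriene and peroxide metabolism, did not pass.

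The largest fall of the families was in a Ugt2b gene. Ugt2b enzymes glucuronidate steroids, bile acids and many drugs. Ugt2b35 read 807.3, 893.1 and 828.4 on the WT arrays and 246.5, 248.3 and 266.8 on the knockout arrays. The 3 knockout values lay within a narrow range far below WT. The log2 fold change was -1.67 ± 0.087 (SE; limma adjusted p = 0.00012), a 3.18-fold fall, and -1.60 with knockout array 3 alone (adjusted p = 0.0124). Ugt2b34 read 1178.5, 1237.6 and 1014.1 in WT and 447.8, 510.5 and 495.1 in the knockout. It fell by 1.21 ± 0.11 (adjusted p = 0.000662), or 2.31-fold, and the value was -1.18 with knockout array 3 alone (0.0372).

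Ugt2b1, known in rodents for the glucuronidation of steroids and bisphenol A, read 276.2, 362.8 and 250.2 in WT and 126.6, 187.3 and 132.2 in the knockout. It fell by 0.93 ± 0.18 (SE; limma adjusted p = 0.0134), without overlap, and omitting knockout array 1 ended the call (adjusted p = 0.0596). With knockout array 3 alone it was -1.06 (adjusted p = 0.0886). Ugt2b36 had 1073 ± 278 and 805 ± 254 by its brightest probe, with overlap (-0.42 ± 0.25; adjusted p = 0.275). Its other probe, tested with every probe on its own, read 1301.7, 1049.7 and 895.6 in WT and 600.2, 818.2 and 558.9 in the knockout (-0.71 ± 0.18; adjusted p = 0.0332 over all 18429 kept probes). Ugt2a3 was near background (18.4 ± 10.9 and 20.2 ± 8.43) and did not pass.

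In the RefSeq table Ugt2b34, Ugt2b1 and Ugt2b35 follow each other directly on chromosome 5, with Ugt2b36 next. Beyond it come Ugt2b5, Ugt2b37, Ugt2b38, Ugt2a1 and Ugt2a2, all undetected, with Ugt2a3 between them. The same stretch goes on with Sult1b1, Sult1d1 and Sult1e1, of which Sult1d1 rose. So the 3 falls were in adjacent genes, and a rise lay at the other end of the same run of genes.

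**Figure D3:**
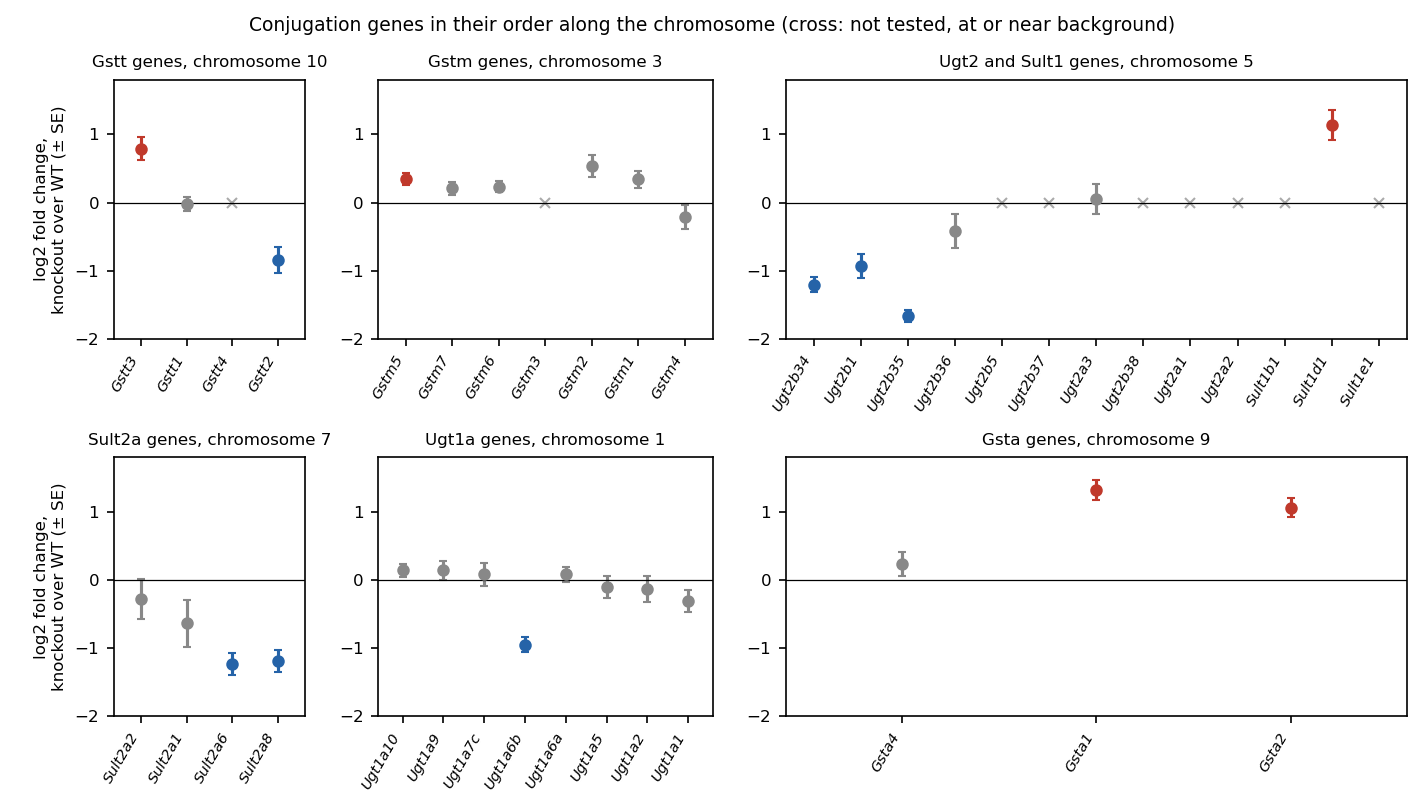
Log2 fold change of knockout over WT (vertical axis, bars are SE) for conjugation genes in their order along 6 chromosome regions, with red for higher, blue for lower, grey for genes that did not pass and crosses at 0 for genes that were not tested. Ugt2b34, Ugt2b1 and Ugt2b35 lie together below 0, and Gstt3 and Gstt2 lie on opposite sides of it.

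The start regions of Ugt2b34, Ugt2b1 and Ugt2b35 are shown because these adjacent genes fell, and those of Ugt2b36, which did not pass, and Ugt2b5, which was undetected, for comparison. HNF1, a homeodomain factor of hepatocytes, binds a palindrome whose arms are GTTA and TAAC, and these arms with 5 free bases between them, which read the same on both strands, were searched after the windows had been read. The lines give the 120 bases before the RefSeq start (GRCm38.p6), 5′ to 3′ on the strand of the gene, with the match in capitals.
Ugt2b34, chr5:86906938-86907057, minus strand: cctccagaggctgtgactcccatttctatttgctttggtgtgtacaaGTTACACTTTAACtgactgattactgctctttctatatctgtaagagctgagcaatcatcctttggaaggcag
Ugt2b1, chr5:86926504-86926623, minus strand: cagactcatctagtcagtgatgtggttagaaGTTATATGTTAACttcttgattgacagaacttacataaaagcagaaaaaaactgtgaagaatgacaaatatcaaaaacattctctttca
Ugt2b35, chr5:87000740-87000859, plus strand: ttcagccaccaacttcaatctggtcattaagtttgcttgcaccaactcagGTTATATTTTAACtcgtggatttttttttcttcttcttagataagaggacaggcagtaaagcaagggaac
Ugt2b36, chr5:87092556-87092675, minus strand: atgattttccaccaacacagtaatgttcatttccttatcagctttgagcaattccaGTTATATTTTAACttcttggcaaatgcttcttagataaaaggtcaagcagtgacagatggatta
Ugt2b5, chr5:87140341-87140460, minus strand: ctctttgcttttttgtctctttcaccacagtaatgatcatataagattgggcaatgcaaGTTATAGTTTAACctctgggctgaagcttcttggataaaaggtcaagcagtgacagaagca
All 7 Ugt2b windows in the table held a match, which lay between 89 and 49 bases before the start. Of 32851 windows of all genes, 0.307% did. Over 250 bases the windows of the 3 genes that fell were 51.6% to 55.2% identical to each other, and those of the undetected Ugt2b5, Ugt2b37 and Ugt2b38 79.6% to 89.6%, and as windows of paralogs they are not independent. In all 8 of 64 windows of the families held a match (12.5%), the eighth being that of Ugt3a1, which did not pass. Ugt2b5, Ugt2b37 and Ugt2b38 hold it too and were not above background in either genotype. A match is a description of the letters and not of binding, which was not measured.

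The Ugt1a genes form 1 locus on chromosome 1, where alternative first exons are spliced to a common set of downstream exons. A probe in the common part therefore reads all of these transcripts together, and a probe in a first exon reads 1 of them, unless it also binds a close paralog. Probe positions were not used here. Ugt1a6b, whose enzyme takes planar phenols, was the only one of 8 genes to pass by its brightest probe. Ugt1a6b read 1014.9, 1200.4 and 978.9 in WT and 577.8, 521.1 and 524.3 in the knockout, a fall of -0.95 ± 0.11 (SE; limma adjusted p = 0.00165), or 1.93-fold. With knockout array 3 alone it was -0.99 (adjusted p = 0.0568).

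For Ugt1a6a, the neighbour and close paralog of Ugt1a6b, the 3 probes disagreed. The brightest read 927.2, 877.9 and 722.8 in WT and 912.2, 847.6 and 900.4 in the knockout, with overlap (0.08 ± 0.11; SE). Another read 868.7, 1059.2 and 800 in WT and 482.3, 471.8 and 406.7 in the knockout (-0.97 ± 0.13; limma adjusted p = 0.00246 over all kept probes). The last read 151.7, 166.6 and 80.7 against 76.6, 64.7 and 41.2 (-0.93 ± 0.26; adjusted p = 0.0469). The log2 difference between the first and second of these probes was -0.11 ± 0.18 on the WT arrays and 0.95 ± 0.15 on the knockout arrays (SD, 3 of each; exact two-sided permutation p = 0.1, the smallest that 3 against 3 arrays can give). The second probe was picked for its small p-value on these same arrays, so this test gives no separate support. With the 3 probes averaged, the log2 fold change of Ugt1a6a was -0.61 (adjusted p = 0.0347), so its sign and its call depend on the probe. A probe of Ugt1a6a or Ugt1a6b may bind both transcripts, so their falls may not be separate measurements.

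Of the other Ugt1a genes, Ugt1a1, the bilirubin transferase, had 1292.5, 1308.4 and 907 in WT and 1069.2, 890.6 and 840.7 in the knockout. The groups overlapped through WT array 3 (-0.31 ± 0.16; SE), and without that array the value was -0.48 (limma adjusted p = 0.0465). The brightest Ugt1a10 probe had 11153 ± 482 and 12346 ± 958 (SD, n = 3 each) and did not pass (0.14 ± 0.093). A dim Ugt1a10 probe was not above background on the WT arrays, where its level is only a bound, and was detected on all 3 knockout arrays at 21.4 ± 2.88. It passed the filter through the knockout arrays alone, so no test of it is read, and the other kept probes of Ugt1a10 had log2 fold changes from -0.06 to 0.14, none of which passed. Ugt1a2, Ugt1a5, Ugt1a7c and Ugt1a9 had log2 fold changes from -0.14 to 0.14 with overlapping groups.

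**Figure D4:**
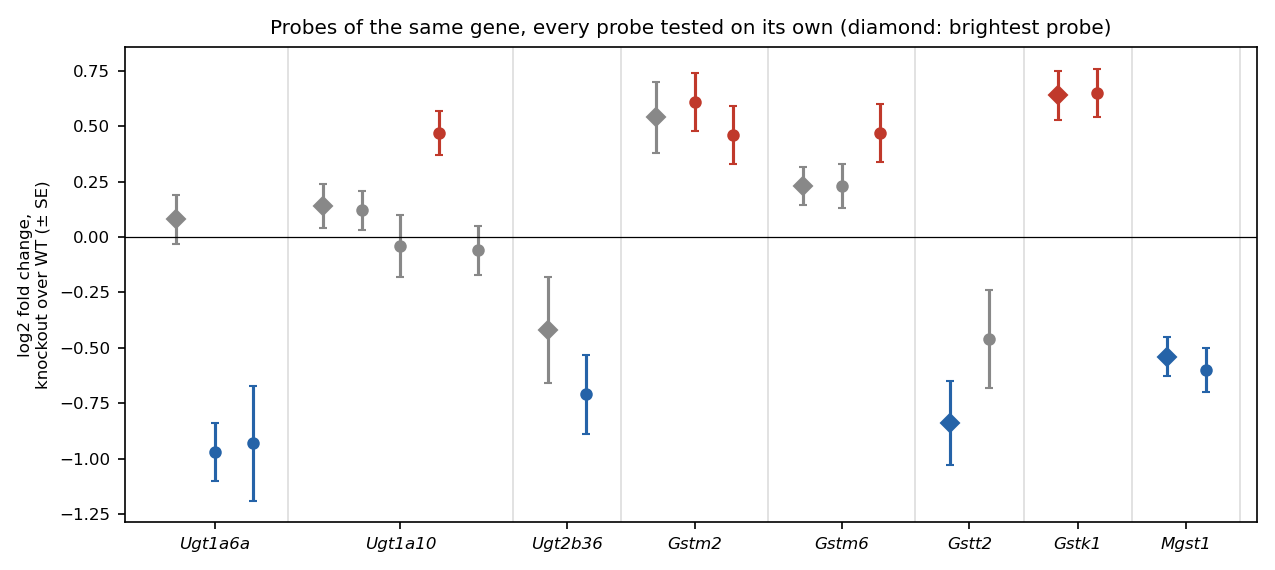
Log2 fold change of knockout over WT (vertical axis, bars are SE) for each kept probe of 8 genes that have several, each probe tested on its own over 18429 probes; diamonds are the brightest probes, red and blue mark an adjusted p under 0.05, and the red Ugt1a10 probe is the one not above background in WT. The probes of Gstk1 and of Mgst1 lie together, whereas those of Ugt1a6a split between 0.08 and about -0.95.

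Across the families, 13 genes had more than 1 kept probe. Of 66 kept probes of these families, 13 were higher and 12 lower, and 12 were higher without the dim Ugt1a10 probe. Among all 18429 kept probes 16.8% passed, 6.98% as higher and 9.77% as lower. For 4 genes whose brightest probe did not pass, another probe detected in both genotypes did: Gstm2, Gstm6, Ugt1a6a and Ugt2b36. The deposited tables give different probe IDs for 31 of the 98 rows, 27 of which name the same gene under both IDs.

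Sulfotransferases moved both ways. Sult1a1 and Sult1d1, which sulfate phenols and catechols, rose, and the hydroxysteroid sulfotransferases Sult2a6 and Sult2a8 fell. Sult1d1 read 1172.2, 1416.4 and 725.7 in WT and 2382.4, 2271.8 and 2443.1 in the knockout. Its WT arrays were spread and its knockout arrays close together and higher. The rise was 1.14 ± 0.22 (SE; limma adjusted p = 0.0134), or 2.20-fold. It did not pass when knockout array 1 was omitted (adjusted p = 0.0555), and was 1.19 with knockout array 3 alone (0.172). Sult1a1 read 6438.3, 6633.7 and 4616.3 in WT and 8881.2, 10065.3 and 8720.8 in the knockout, a rise of 0.66 ± 0.15 (adjusted p = 0.0254). Omitting array 1 of either genotype or knockout array 2 ended the call of Sult1a1 (adjusted p 0.0508 to 0.0763), and with knockout array 3 alone it was 0.58 (0.274).

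Sult2a8, a mouse enzyme known for sulfating bile acids, read 416.9, 430.2 and 349.5 in WT and 151.1, 215.3 and 137.9 in the knockout. Every knockout array was far below WT, a fall of -1.19 ± 0.16 (SE; limma adjusted p = 0.0036), or 2.28-fold, and -1.43 with knockout array 3 alone (adjusted p = 0.0257). Sult2a6, the adjacent gene, read 54.3, 65.8 and 37.1 in WT and 9.7, 14.4 and 8 in the knockout, where it was above background on 1 of 3 arrays. It fell by 1.24 ± 0.16 (adjusted p = 0.00275), a fold that background makes inexact, and the value was -1.34 with knockout array 3 alone. Sult2a6 met the filter only with the WT arrays, where it is high, so its p-value does not stand apart from that filter. Sult2a1 had 74.7, 78.8 and 24.8 in WT and 42.4, 17.9 and 30.5 in the knockout, with WT array 3 among the knockout values (-0.64 ± 0.34), and -1.04 without that array (adjusted p = 0.0242). Sult2a2 had 1606 ± 688 and 1257 ± 244 with overlap. Probes of these close paralogs may bind several of them.

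A second form of the HNF1 site, GTTAAT and ATT with 1 free base between them, searched on both strands, is in 0.371% of all windows and in 5 of 64 windows of the families. These were Ugt1a1, Ugt1a9, Ugt1a10, Sult1d1 and Sult2a6. Windows of the last 2 are shown because these genes moved in opposite directions with a match at a like distance (79 to 70 and 71 to 62 bases before the start, GRCm38.p6, match in capitals).
Sult1d1, chr5:87569007-87569126, minus strand: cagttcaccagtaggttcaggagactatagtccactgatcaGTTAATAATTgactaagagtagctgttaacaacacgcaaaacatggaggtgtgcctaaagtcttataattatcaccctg
Sult2a6, chr7:14254871-14254990, minus strand: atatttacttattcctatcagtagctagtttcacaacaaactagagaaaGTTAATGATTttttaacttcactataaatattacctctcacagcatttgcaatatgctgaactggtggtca
The match thus went with a rise, a fall and genes that did not pass.

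Sult5a1 was the only further Sult gene with an unadjusted p under 0.05. It read 43, 36.3 and 18.5 in WT and 71, 39.8 and 127 in the knockout, highest on knockout array 3, with overlap (0.90 ± 0.34; SE; limma adjusted p = 0.108). It passed without knockout array 2 (1.23; adjusted p = 0.0394). Sult1c2 and Sult2b1, the latter a cholesterol sulfotransferase, did not pass. The estrogen sulfotransferase Sult1e1 and the thyroid hormone sulfotransferase Sult1b1 were undetected on all 6 arrays.

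Over the 3 lists of genes that supply the conjugating groups, 3 of 24 tested rose and 3 fell, 12.5% each, where 8.23% and 8.49% of all genes tested did. Of 11 tested genes of glutathione supply, 1 rose and 2 fell (median log2 fold change 0.03). Gclm, the modifier subunit of the enzyme that limits glutathione synthesis, fell by 0.68 ± 0.13 (SE; limma adjusted p = 0.0113), and the glutathione-degrading Chac2 fell by 0.34 ± 0.082, whereas the related Chac1 rose by 0.64 ± 0.17. Of 4 tested genes around UDP-glucuronic acid, Ugp2, which makes UDP-glucose, rose by 0.59 ± 0.14. Gulo, which takes glucuronic acid on to vitamin C, changed by -1.0 ± 0.097 (adjusted p = 0.000952). Of 9 tested genes of PAPS supply and sulfate removal, 1 rose, the PAPS synthase gene Papss2 (11.40, 11.46 and 11.44 against 11.94, 11.85 and 11.97 as log2 intensity; 0.49 ± 0.082, adjusted p = 0.00759). With probe means Papss2 did not pass. Papss1 had 0.01 ± 0.13. Omitting array 1 of either genotype, among others, ended the calls of Chac1, Chac2 and Ugp2.

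Of 14 other tested conjugation enzymes, 2 rose and 4 fell, or 14.3% and 28.6% against 8.23% and 8.49% of all genes tested (median -0.19). Nnmt, which methylates nicotinamide, rose 18.2-fold and Gnmt, the glycine methyltransferase, 1.68-fold. Ephx1, the microsomal epoxide hydrolase, fell by 1.44 ± 0.12 (SE; limma adjusted p = 0.000481). Tpmt, thiopurine methyltransferase (-0.60 ± 0.17), Acsm3 (-0.45 ± 0.10) and Hpgds, a sigma-class glutathione transferase that makes prostaglandin D (-0.45 ± 0.10), also fell. Omitting array 1 or 2 of either genotype ended each of these 3 calls, and with probe means Acsm3 did not pass.

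The factors that control these families were measured as well. Of 16 tested xenobiotic receptors and regulators, 5 fell and the others did not pass (31.2% lower, against 8.49% of all genes tested, median -0.17). Nfe2l2, which encodes NRF2, read 8.16, 8.06 and 8.08 in WT and 7.57, 7.43 and 7.65 in the knockout as log2 intensity (-0.55 ± 0.093; SE; limma adjusted p = 0.0078). Cebpa, a factor of hepatocyte maturation (-1.18 ± 0.20), the glucocorticoid receptor gene Nr3c1 (-0.72 ± 0.12), Ppara (-0.43 ± 0.12) and the bile acid receptor gene Nr1h4 (-0.43 ± 0.11) also fell. Omitting WT array 1 or 2, or any knockout array, ended the calls of Ppara and Nr1h4. With knockout array 3 alone none of the 5 passed, at -0.45 for Nfe2l2 (adjusted p = 0.185), -1.4 for Cebpa (0.0895) and -0.81 for Nr3c1 (0.0916). With the lung level as a covariate Nfe2l2 did not pass (adjusted p = 0.121), and Cebpa and Nr3c1 did (0.0403 and 0.04). Nr1i2, which encodes PXR (-0.19 ± 0.086), Nr1i3, which encodes CAR (-0.02 ± 0.11), and Hnf4a (0.23 ± 0.10) did not pass.

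Among 18 tested NRF2 target genes outside the families, 5 rose and 3 fell, or 27.8% and 16.7% against 8.23% and 8.49% of all genes tested (median 0.05). Srxn1, sulfiredoxin, rose by 1.36 ± 0.12 (SE; limma adjusted p = 0.000657), the carbonyl reductase genes Cbr3 by 0.99 ± 0.13 and Cbr1 by 0.75 ± 0.18, and Nqo1, a quinone reductase, by 0.50 ± 0.094. Ephx1 and Gclm, given above, were among the 3 that fell. The call of Nqo1 ended when knockout array 1 was omitted, and that of Cbr1 when WT array 1 or any knockout array was. Of 11 tested transporters of conjugates, 1 rose and 3 fell, or 9.09% and 27.3%. Slco1b2, an uptake carrier for bilirubin and bile acids (-0.67 ± 0.10), Abcc6 (-0.63 ± 0.14) and the bile salt carrier Slc10a1 (-0.58 ± 0.12) fell, and Slco2b1 rose (0.93 ± 0.21). Abcc2, which exports glucuronides and glutathione conjugates into bile, had -0.56 ± 0.20 and did not pass (adjusted p = 0.0929). Omitting knockout array 1, among others, ended the calls of Abcc6, Slc10a1 and Slco2b1.

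Across these lists 27 genes passed. WT and knockout values overlapped for none of the 27, so keeping their sign with knockout array 3 alone was fixed in advance and adds no support. Of them 4 passed there, Gulo, Nnmt, Ephx1 and Srxn1 (limma adjusted p 0.00229 to 0.0468). Gclm, Papss2, Gnmt, Cbr3 and Slco1b2 did not, with values of -0.74, 0.54, 0.76, 1.04 and -0.55 (adjusted p 0.0798 to 0.146). With the lung level as a covariate 8 of the 27 passed.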

How the data were processed

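Per the labels' protocols, total liver RNA of newborn mice was amplified to biotinylated cRNA for Illumina BeadChips. The authors deposited probe intensity values in 2 tables, 1 of them with detection p-values in the deposited columns. The deposited intensities are the same in both, already background-subtracted (25.0% to 25.1% below 0) and alike in distribution (sorted values differ by at most 0.2). The software behind them is not given in the sources used here. Between 46.3% and 49.9% of probes had a detection p under 0.05, and the number of arrays limits the precision.

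Rows were named through the table of unique probe IDs by their 6 intensities, with the platform annotation (34885 of 45281 probes have 1 symbol, 18 several, 10378 none) and symbols updated by Entrez ID for 34807 probes. Limma's neqc (version 3.58.1, R 4.3.3) with an offset of 16 gave log2 values. Each gene was represented by its brightest probe among those detected (p under 0.05) on 3 or more of the 6 arrays. Groups were compared with lmFit and eBayes, two-sided, with Benjamini-Hochberg adjustment over 11346 genes at 0.05. On simulated log2 values of 11346 genes with 3 arrays a group, the share of altered genes recovered was 35.8% at a change of 0.5, 80.3% at 1 and 97.4% at 2. Each run altered 200 genes, with independent normal noise and spreads shuffled over genes, whereas 1897 genes passed in the data. Uneven lung and Xist levels were not simulated, so these shares may not hold for the real arrays. The labels do not say whether arrays are separate animals, and 3 arrays held Xist and Y-linked transcripts together, so p-values measure the spread between these samples.

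The families and lists were chosen with earlier results of these data known. Any family member could be named. Those that passed have values on every array, and others are given by level or where an unadjusted p was under 0.05. For the context lists, up to 6 genes that passed were named per list by smallest p, with a few genes that did not pass (Papss1, Nr1i2, Nr1i3, Hnf4a, Abcc2) named besides after their values were seen. Alternatives changed the background correction, offset, normalization, filter, probe choice, variance model, array weights, covariates, arrays and fold minimum. Rows with equal IDs in both tables were an alternative added after seeing the data. Promoter windows are those of RefSeq (GRCm38.p6), found for 53 of the 60 genes by symbol. No protein sequences were used here.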

Additional observations from a re-analysis of the deposited data

How the results depend on the processing

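Of the 16 genes that passed, Gsta1, Gsta2, Ugt2b34, Ugt2b35 and Sult2a8 kept their call and direction in every alternative in which they were tested (Gsta1 was not tested among rows with equal probe IDs). The limit of the filter given above for Gsta2 applies here too. The counts of 8 higher and 8 lower were within 1.5 times in all other alternatives than those named here. The sex covariate (mean log2 intensity of the Y-linked genes minus that of Xist, per array) left 5 higher. The lung covariate left 4 higher, among them Sult5a1, which had not passed before. With the lung covariate the calls of Gstk1, Gstm5, Gstt2, Gstt3, Mgst1, Sult1a1 and Sult1d1 ended. Without both knockout arrays 1 and 2, which leaves 1 knockout array, both counts were also outside that range. Leaving out 1 array gave 3 to 8 higher and 6 to 10 lower. Among all genes, 1897 changed, and the count was 3088 with every probe tested, 3025 with array weights, 1156 with the sex covariate, 605 with the lung covariate, 228 without both knockout arrays 1 and 2, 938 at a minimum of 1.5-fold, and 849 to 1880 with 1 array left out. Ugt1a6a turned from 0.08 to -0.61 with probe means, because 2 of its 3 probes fell. For the other lost calls the cause was not tested, beyond the smaller number of arrays.

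Gstm5 and Gstt2 lost their calls in the most alternatives, 9 and 10 of 22. The arrays share replicate numbers in their titles, but deviations of same-numbered arrays correlated at -0.004, 0.028 and 0.015, so the numbers were not taken as pairs. With the replicate block, 7 genes were higher and 7 lower, and 1323 genes changed in all. Dim genes such as Gsta1, Gsta2, Gsto2 and Sult2a6 have inexact folds, from 0.82 to 1.94 for Gsta1 with the offset and floor.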
